A study of Mus musculus with 58 samples.

Results

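The genes for 3 accessory repressors of the circadian clock were followed across 4 deposited lists of binding sites: Bhlhe40, which encodes DEC1, Bhlhe41, which encodes DEC2, and Gm129, now called Ciart, which encodes CHRONO. Their sites were the BMAL1 peaks that the authors had annotated to 1 of these 3 gene symbols, and every CLOCK peak whose centre lay within 5 kb of such a peak. This gave 20 of the 3172 entries in the 4 lists, namely 8 of 463 BMAL1 and 2 of 1016 CLOCK entries in NIH3T3 cells, and 7 of 1254 BMAL1 and 3 of 439 CLOCK entries in liver. The 15 BMAL1 entries described 8 different intervals, because 7 of them appeared with the same start and end in both lists.

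BMAL1 and CLOCK form the activating pair of the mammalian clock and bind E-boxes, short DNA elements with the letters CACGTG. Among the genes they switch on are those of their own repressors. DEC1 and DEC2 are basic helix-loop-helix proteins that bind E-boxes themselves and repress transcription from them. CHRONO does not belong to that family and represses by binding BMAL1. The Period and Cryptochrome proteins are the main repressors of the same loop.

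NIH3T3 is a mouse embryonic fibroblast line. Its cells had been synchronised with 100 nM dexamethasone, a glucocorticoid, for 30 min and then given fresh medium. The samples were ChIP-seq libraries (sequenced DNA from chromatin immunoprecipitation), 7 for BMAL1 taken 12 to 38 h after dexamethasone and 6 for CLOCK taken at 18 to 38 h, with several precipitates pooled to collect enough DNA. Liver CLOCK came from 1 sample, called pooled in its label and given without a time, from C57/BL6 mice of 12 to 14 weeks kept in 12 h of light and 12 h of dark with free access to food. Liver BMAL1 had been reprocessed by the authors from earlier libraries of zeitgeber time 6 (hours after lights on), and the name of the NIH3T3 BMAL1 list gives the time 20 h alone. The remaining 44 samples, of which 40 were RNA libraries and 4 polymerase II or input ChIP libraries, were left out. Each list gives positions in build mm9 with no height, score or value per library. No replicate error, depth or fold enrichment can therefore be given, no test over samples was possible, and the labelled cells and tissue could not be checked against marker genes. All numbers below are counts and distances within these lists.

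The RefSeq promoter sequences of 2 of the 3 genes are shown first, because they differ in how many E-boxes they hold. RefSeq held a window for Ciart (Gm129) and for Bhlhe41, and Bhlhe40 had no entry. Each line gives the 250 bases before the RefSeq start in build GRCm38.p6, 5′ to 3′ on the minus strand from which both genes are read, with every CACGTG in capitals. The Ciart stretch lies at chr3:95882229-95882478 and the Bhlhe41 stretch at chr6:145865421-145865670.
Ciart (Gm129): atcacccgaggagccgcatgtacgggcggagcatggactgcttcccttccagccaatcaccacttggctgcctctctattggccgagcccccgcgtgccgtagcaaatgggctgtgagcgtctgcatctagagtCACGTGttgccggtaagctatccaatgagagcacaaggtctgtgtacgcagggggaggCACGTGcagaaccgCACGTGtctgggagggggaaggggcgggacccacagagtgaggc
Bhlhe41: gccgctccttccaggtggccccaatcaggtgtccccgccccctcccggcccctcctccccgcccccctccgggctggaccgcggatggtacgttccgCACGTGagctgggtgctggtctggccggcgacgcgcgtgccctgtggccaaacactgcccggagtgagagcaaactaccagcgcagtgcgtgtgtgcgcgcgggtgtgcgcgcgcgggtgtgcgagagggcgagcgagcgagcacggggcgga

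Ciart held 3 E-boxes, whose first bases lay 116, 58 and 44 bases before the start. The 2 nearest the start were separated by 8 bases, as CACGTGcagaaccgCACGTG. Bhlhe41 held 1 E-box, 153 bases before its start. Counted over windows of 300 bases that also include the 50 bases from the start on, 7.15% of 32851 RefSeq promoter windows held at least 1 CACGTG, 0.594% held at least 2 and 0.0883%, or 29 windows, held at least 3. The palindrome CACGTG reads the same on both strands and was counted once. Windows of 1 gene can overlap each other, so they are not independent.

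The share with the element was higher among promoters of genes with a BMAL1 peak. Of 255 windows of genes with an NIH3T3 BMAL1 peak within 1 kb of the start site, 49.0% held at least 1 E-box, 16.1% at least 2 and 2.75%, or 7 windows, at least 3. For the 473 windows of genes with a liver BMAL1 peak within 1 kb the shares were 34.5%, 9.30% and 1.27%. Ciart and Bhlhe41 belong to these gene sets. A pair of neighbouring E-boxes with exactly 8 bases between them occurred in 3 of the 32851 windows, a spacing looked up after the Ciart sequence had been seen. For pairs 6 or 7 bases apart, in which 1 or both elements may also be the related E-prime box CACGTT, searched on both strands, the count was 6 windows, and neither Ciart nor Bhlhe41 was among them.

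Of the other elements, all searched on both strands, most were not found in these 2 windows. Neither held an E-prime box (in 4.68% of all windows), a D-box with the letters TTATGTAA or TTACGTAA (1.06%), the nuclear receptor element AGGTCA (16.3%) or the cyclic AMP response element TGACGTCA (1.79%). The GC box GGGCGG occurred 2 times in the Ciart window and 4 times in that of Bhlhe41, and 19.5% of all windows held at least 2. Among windows of genes with a BMAL1 peak within 1 kb, 47.5% held at least 2 for NIH3T3 cells and 43.8% for liver.

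Among the 21 genes of a 26-gene clock list with a window, 5 held an E-box, namely Per1, Cry1, Tef, Bhlhe41 and Gm129. Ciart was the single gene of these 21 with more than 1 CACGTG in a window. In Cry1, which encodes a main repressor, an E-prime box lay 79 and an E-box 60 bases before the start. In Per1 the E-box lay 166 bases before 1 of its 2 starts. The window is short, and elements beyond it were not searched.

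**Figure D1:**
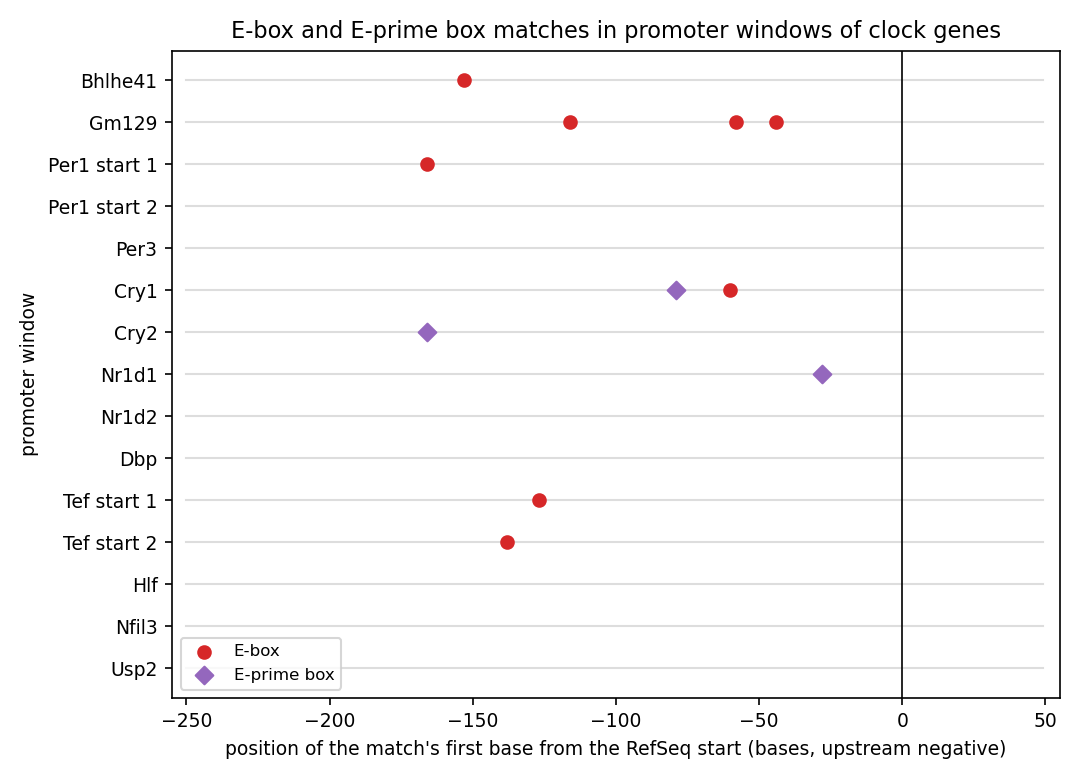
Positions of E-box (circles) and E-prime box (diamonds) matches in RefSeq promoter windows of clock genes with a BMAL1 peak, as bases from the RefSeq start. Gm129 has 3 E-boxes, at 116, 58 and 44 bases upstream, and every other window plotted has at most 1 E-box.

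Gm129 carried a compact group of BMAL1 peaks directly upstream of its start site, and CLOCK was found there in both contexts. In mm9 the peaks covered chromosome 3, 95686180 to 95686229, 95686254 to 95686303 and 95686565 to 95686644. The authors gave their distances from the start site as -30, -104 and -430 bp, where a minus sign means upstream. All 3 distances point back to the same start, at 95686174 on the minus strand. The first 2 peaks were 50 bp wide with centres 74 bp apart, and the third was 80 bp wide, 326 bp farther upstream. All 3 intervals were the same in the NIH3T3 and liver lists.

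A single NIH3T3 CLOCK peak lay at Gm129, at 95686258 to 95686307. Its centre was 4 bp from that of the middle BMAL1 peak, 78 bp from the peak nearest the start and 322 bp from the farthest. It overlapped the middle peak alone. The liver CLOCK list, in which every peak is 250 bp wide, had 3 peaks at Gm129. The first, at 95686066 to 95686315, spanned the start site and overlapped both proximal BMAL1 peaks, with centres 14 and 88 bp away. The second, at 95686440 to 95686689, overlapped the distal BMAL1 peak, with centres 40 bp apart. The third, at 95686683 to 95686932, lay farther upstream, with its centre 203 bp from that of the distal peak. So in liver each of the 3 BMAL1 peaks was overlapped by CLOCK, and in NIH3T3 cells 1 of 3 was. NIH3T3 CLOCK peaks are 50 bp wide, so these overlap counts are not comparable between the contexts. By centres within 500 bp, all 3 had CLOCK in both contexts.

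The positions of the peaks and of the E-boxes can be set side by side, each from its own start. The BMAL1 peak nearest the start of Gm129 ran from 55 to 6 bases upstream of the authors' start, and the middle peak from 129 to 80 bases upstream. From the RefSeq start, the E-boxes began at 58 and 44 and at 116 bases upstream. The NIH3T3 CLOCK peak ran from 133 to 84 bases upstream of the authors' start. The starts come from different annotations and builds and were not matched, so these values do not place an element inside a peak.

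**Figure D2:**
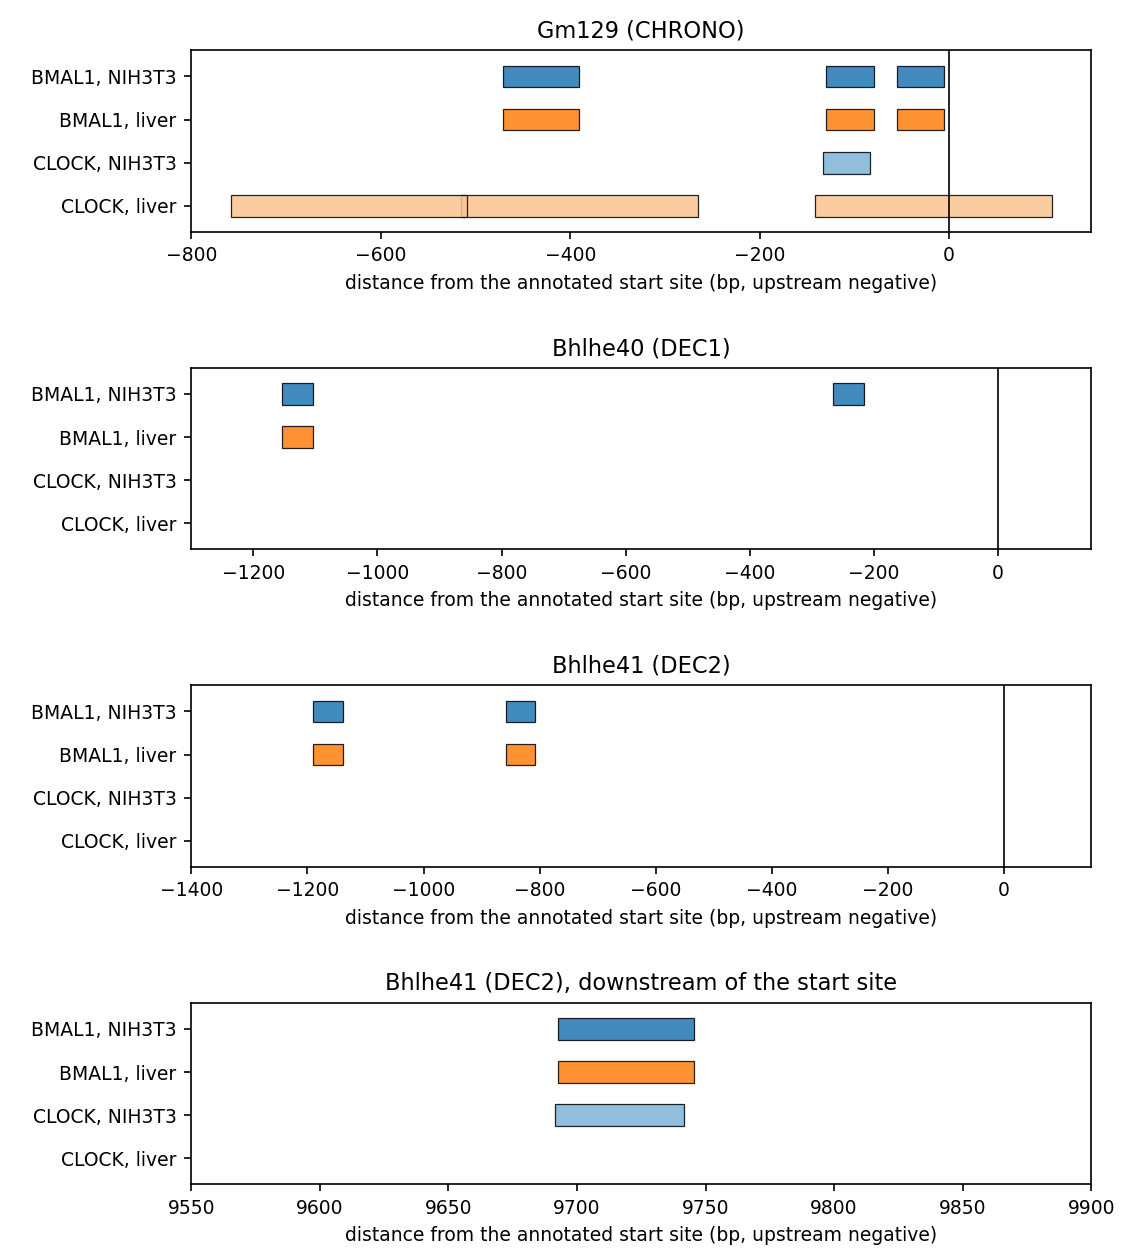
BMAL1 and CLOCK peaks as boxes over distance from the annotated start site (bp, upstream negative; vertical line at 0) for Gm129, Bhlhe40 and Bhlhe41, with 1 row per list and a different span in each panel. For Bhlhe41 the distances are from the start at which its upstream peaks lie at -832 and -1164 bp. CLOCK boxes appear at Gm129 in both contexts, at the downstream Bhlhe41 peak in NIH3T3 cells alone, and not at Bhlhe40.

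Bhlhe41 combined 2 upstream BMAL1 peaks that had no CLOCK peak with a distant downstream peak that had one in NIH3T3 cells. The upstream peaks covered chromosome 6, 145814886 to 145814935 at -832 bp and 145815218 to 145815267 at -1164 bp, with centres 332 bp apart. The third peak covered 145804333 to 145804385, which the authors placed 9464 bp downstream. All 3 were the same entries in both BMAL1 lists. The upstream distances point back to a start at 145814078 and the downstream one to a start at 145813822, so 2 annotated starts 256 bp apart were in use. Whether the downstream peak lies inside or beyond the transcript was not analysed here, since no mm9 gene model was used.

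The NIH3T3 CLOCK peak at 145804337 to 145804386 almost coincided with the downstream Bhlhe41 peak, with centres 2.5 bp apart. Of the 102 NIH3T3 BMAL1 peaks with a CLOCK centre within 500 bp, 11 had one within 5 bp, and the downstream Bhlhe41 peak and the middle Gm129 peak were both among them. From the upstream Bhlhe41 peaks the same CLOCK peak was 10549 and 10881 bp away, and no other was nearer. In liver the nearest CLOCK centre to any Bhlhe41 peak was 3337263.5 bp away. At the downstream site, then, liver BMAL1 was listed without liver CLOCK. Between 5 and 10 kb downstream of their start site lay 2.16% of NIH3T3 and 5.74% of liver BMAL1 peaks. That range was not set beforehand, and these shares depend on it. Among the 131 NIH3T3 BMAL1 peaks farther than 1 kb from the start site 24.4% had a CLOCK centre within 500 bp, and among the 332 nearer ones 21.1% had one. In liver 3.46% of the 694 peaks beyond 1 kb had a liver CLOCK centre. Cry2, a main repressor gene, had a downstream pair of BMAL1 peaks in both lists, 8513 bp from its start site, and there CLOCK was listed in liver, 9 and 19 bp away, and not in NIH3T3 cells.

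Bhlhe40 was the one of the 3 genes with a BMAL1 peak that differed between the contexts. A peak at chromosome 6, 108609470 to 108609519, 1129 bp upstream of the start site, was in both lists. A second, at 108610357 to 108610406 and 242 bp upstream, was in the NIH3T3 list alone. Their centres lay 887 bp apart, and both distances refer to a start at 108610623 on the plus strand. Neither list of CLOCK peaks had an entry near them. Most BMAL1 peaks had none, as 22.0% in NIH3T3 cells and 4.31% in liver had a CLOCK centre within 500 bp. From the distal peak the nearest NIH3T3 CLOCK centre was 3420135 bp and the nearest liver one 2928723 bp away.

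Counted over the 3 genes, 7 of 8 NIH3T3 BMAL1 peaks and 7 of 7 liver peaks had a centre of the other context within 500 bp. Over all genes the shares were 59.2% of NIH3T3 and 21.8% of liver peaks. All 7 pairs were identical intervals, as were 56.8% of all NIH3T3 and 21.0% of all liver peaks. They stood among the first 263 entries, which are the same in both BMAL1 lists. Whether such peaks were called separately in each context cannot be told from the lists, so their identity is no measure of agreement between cells and tissue. The NIH3T3-only Bhlhe40 peak stood outside that stretch, as entry 433.

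Having several BMAL1 peaks was common among these genes and the other clock genes. In NIH3T3 cells all 3 genes had at least 2 peaks, as did 23.8% of 345 genes with a peak, and Bhlhe41 and Gm129 had 3, against 5.22% with at least 3. In liver Bhlhe41 and Gm129 had 3 peaks each and Bhlhe40 had 1, where 17.1% of 985 genes had at least 2 and 4.26% at least 3. Of the other clock genes with a peak, 10 of 10 had at least 2 and 7 at least 3 in NIH3T3 cells, up to 7 peaks at Nr1d1, and 10 of 13 had at least 2 and 8 at least 3 in liver. With peaks closer than 1 kb joined, the 3 genes held 4 loci in each context, 1 for Gm129, 1 for Bhlhe40 and 2 for Bhlhe41. By the same rule the 35 NIH3T3 peaks of the other clock genes formed 16 loci, and their 35 liver peaks formed 23. Upstream of the start site lay 7 of 8 peaks in NIH3T3 cells (65.0% over the list) and 6 of 7 in liver (54.1%).

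The peak nearest the start site lay farther away at each DEC gene than at Gm129, although the NIH3T3 Bhlhe40 peak at -242 bp was nearer than the most distal Gm129 peak at -430 bp. Within 1 kb lay 5 of 8 NIH3T3 peaks, where 71.7% of the list did, and 4 of 7 liver peaks, where 44.7% did. Gm129 gave 3 of these in each context, Bhlhe41 gave 1 and Bhlhe40 gave 1 in NIH3T3 cells alone. The median distance was 631 bp over the 8 NIH3T3 peaks (219 bp over the list) and 832 bp over the 7 liver peaks (2182 bp over the list). For the 10 other clock genes with an NIH3T3 peak, the peak nearest the start lay between 3 bp (Tef) and 192 bp (Cry2) away. At 30 bp Gm129 fell inside that range, and at 242 bp for Bhlhe40 and 832 bp for Bhlhe41 the DEC genes fell outside it. In liver, where 13 other clock genes had a peak, 1 of them had its nearest peak farther away than the 1129 bp of Bhlhe40 and 3 had it farther than the 832 bp of Bhlhe41. These distances depend on which annotated start the authors used.

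CLOCK stood at 4 of 8 NIH3T3 BMAL1 peaks of the 3 genes by the 500 bp limit, against 22.0% over the list, and at 3 of 7 liver peaks, against 4.31%. All 7 liver peaks and 7 of the 8 NIH3T3 peaks stood among the 263 entries that are the same in both BMAL1 lists. The percentages of both lists in this paragraph also count peaks outside those entries, so they are not shares among like peaks. Gm129 supplied 3 of the 4 and all 3 in liver. Those 3 NIH3T3 counts came from a single CLOCK peak, and when intervals had to overlap the NIH3T3 count was 2, against 12.5% over the list. In liver the overlap rule kept all 3, against 3.91%. Liver CLOCK intervals are 250 bp wide and NIH3T3 ones 50 bp, so the 2 overlap counts are not comparable. All 3 liver peaks with CLOCK lay within 1 kb of the start site, where 5.36% of the 560 liver BMAL1 peaks had it. Set against the CLOCK list of the other context, 3 of 8 NIH3T3 peaks had a liver CLOCK centre (10.2% over the list) and 4 of 7 liver peaks had an NIH3T3 one (6.54%). The 7 liver intervals are also NIH3T3 entries, so these 2 counts repeat the same peaks and add no new information. For other clock genes, CLOCK stood at 28 of 35 peaks of 10 genes in NIH3T3 cells and at 24 of 35 peaks of 13 genes in liver. Bhlhe40 and Bhlhe41 together had it at 1 of 5 and 0 of 4, where 22.0% and 4.31% of all peaks in the 2 lists had it. With so few peaks, of which several share a promoter, these counts describe the loci and no difference was tested. A site missing from a CLOCK list is not a site without CLOCK, since no source used here gives the threshold of either list.

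**Figure D3:**
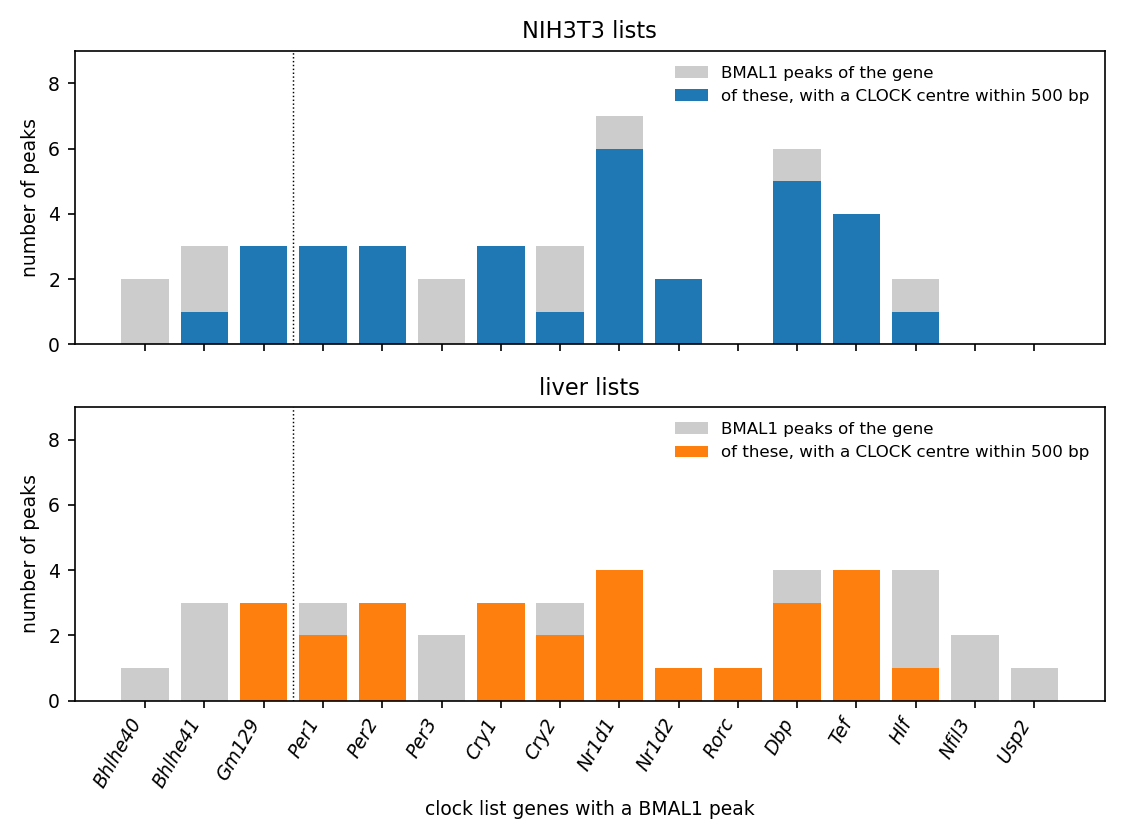
Number of BMAL1 peaks per clock gene (grey bars) and the number of them with a CLOCK centre of the same context within 500 bp (coloured bars), in NIH3T3 cells above and liver below. The dotted line separates the 3 repressor genes, of which Gm129 is coloured in full in both panels and Bhlhe40 in neither.

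The distances to the nearest CLOCK centre, from which the 500 bp counts were taken, spanned a wide range. Over all NIH3T3 BMAL1 peaks its median was 373747 bp, and over the peaks of other clock genes it was 66 bp. For Gm129 the 3 distances were 4, 78 and 322 bp in NIH3T3 cells and 14, 40 and 88 bp in liver. For Bhlhe41 they were 2.5, 10549 and 10881 bp in NIH3T3 cells, 1 peak inside the limit and 2 outside, and at least 3337263.5 bp in liver. Every Bhlhe40 peak was at least 2928723 bp from a CLOCK centre of its own context. The median over all liver BMAL1 peaks was 2150690.5 bp and over those of other clock genes 98 bp.

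**Figure D4:**
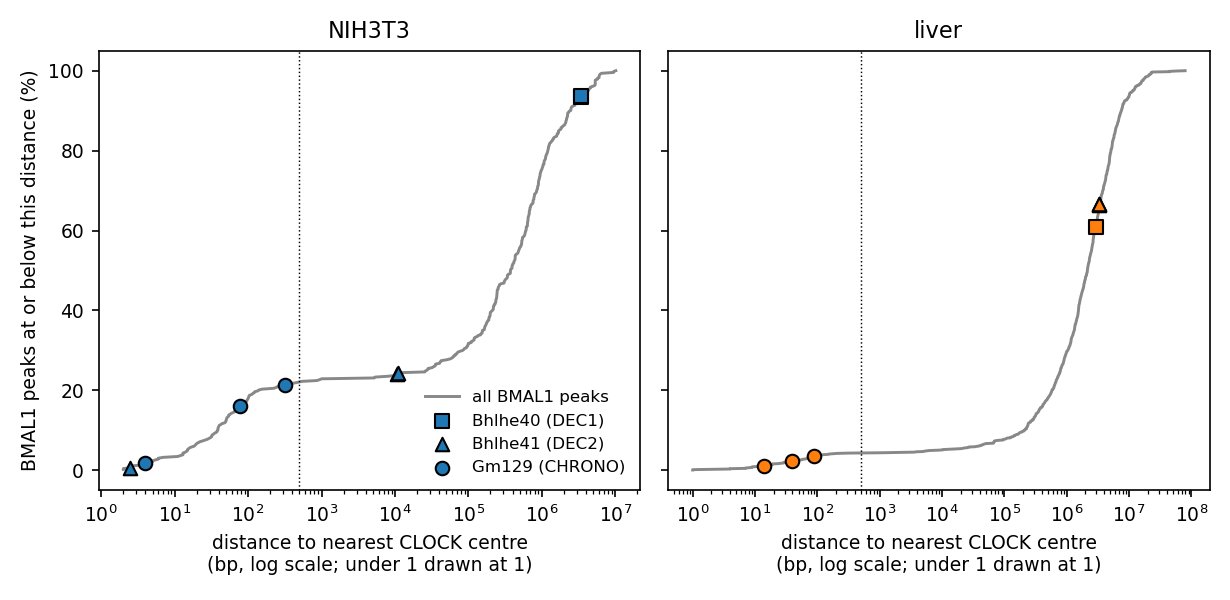
Cumulative share of BMAL1 peaks (%) by distance to the nearest CLOCK centre of the same context (bp, log scale), with the peaks of the 3 genes marked and the 500 bp limit dotted. All Gm129 peaks lie left of the limit in both panels, 1 Bhlhe41 peak does in NIH3T3 cells, and no Bhlhe40 peak does.

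To find the clock genes most like each of the 3, 4 yes-or-no marks were compared: a BMAL1 peak shared between contexts, CLOCK within 500 bp in NIH3T3 cells, CLOCK within 500 bp in liver, and a BMAL1 peak within 1 kb of the start site. Only the 16 of 26 clock list genes with a BMAL1 peak in either list were compared. Gm129 had all 4 marks, as had 9 of the 13 genes besides the 3: Per1, Per2, Cry1, Cry2, Nr1d1, Nr1d2, Dbp, Tef and Hlf. Each mark was set over all peaks of a gene, so equal marks need not mean a like arrangement. At Hlf CLOCK lay at the shared peak, at -27255 bp. The Hlf promoter peaks, at -31 bp in NIH3T3 cells and -598 bp in liver, had no CLOCK centre within 500 bp. At Cry2 the liver CLOCK mark came from the downstream pair at 8513 bp. Bhlhe40, with a shared peak and a promoter peak but no CLOCK, matched Per3 alone, whose 2 shared peaks the authors placed at 4 and -303 bp. At Bhlhe40 the 2 marks came from different peaks, the shared one at -1129 bp and the NIH3T3-only one at -242 bp. Bhlhe41, with CLOCK in NIH3T3 cells and none in liver, matched no other gene on all 4 marks and 12 genes on 3, with Bhlhe40 and Gm129 among them. Its promoter mark came from the peak at -832 bp and its CLOCK mark from the peak 9464 bp downstream. Those distances refer to 2 starts 256 bp apart. Measured from the start used for the downstream peak, the -832 bp peak would lie beyond 1 kb and the promoter mark would be lost. These marks are coarse and rest on 4 lists.

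The DEC proteins are relatives of the HES and HEY repressors, basic helix-loop-helix factors of which several act downstream of Notch, and of the ID proteins, which lack a DNA-binding region. Of a list of 14 such genes, 2 had a BMAL1 peak in either list, against 4.42% of 21900 RefSeq protein-coding genes matched by name, and 0 had one shared between contexts, against 0.740%. With 14 genes and a background this low, a count of 0 says little about the family. Hes1 had 2 NIH3T3 peaks, 44 bp upstream and 34 bp downstream of its start site, and 1 liver peak 18659 bp upstream, so that its nearest peaks of the 2 contexts lay 18615 bp apart. Hes7 had 1 liver peak 2352 bp upstream. No CLOCK centre of the same context lay within 500 bp of these 4 peaks, 2 in each list, where 22.0% of NIH3T3 and 4.31% of liver peaks had one, and the nearest was 22885 bp away.

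Little else was listed around the 3 genes. Within 50 kb and beyond 5 kb of their peaks there was 1 liver BMAL1 peak, at chromosome 6, 145777893 to 145777942, annotated to Rassf8 and 26441.5 bp from the downstream Bhlhe41 peak. There was also 1 NIH3T3 CLOCK peak, at 145855163 to 145855212, on the other side and 39945 bp from the most upstream Bhlhe41 peak. Around Bhlhe40 and Gm129 the 4 lists had no further entry in that range.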

How the data were processed

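The 4 deposited peak lists give chromosome, start and end in mm9, per the submitters' processing notes, which also name Bowtie, SAMtools and bedtools without roles. The authors' BMAL1 lists add a gene and a signed distance in bp. No source used here names the peak caller, its thresholds or any pooling of libraries before calling. BMAL1 peaks were 5 to 100 bp wide, NIH3T3 CLOCK peaks 50 bp and liver CLOCK peaks 250 bp, so peaks were compared by centre distance, with 500 bp as the limit. Starts are printed counting from 1. Start sites were recovered from centre and distance. The gene column of the NIH3T3 CLOCK list was not used to assign peaks. Promoter windows are those of RefSeq for GRCm38.p6, matched by symbol or synonym, and no coordinates were converted between builds. The 3 genes, the gene lists and the limits were chosen with earlier results of these data known. The text names the 3 genes, members of the clock and helix-loop-helix lists with a peak, and neighbours within 50 kb. Nothing was tested: percentages over a whole list stand beside counts as background. Counting of distances, overlaps and loci was tested on simulated data. Python 3.11.15, NumPy 2.4.6, pandas 2.3.3 and Matplotlib 3.10.9 were used.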

Additional observations from a re-analysis of the deposited data

How the results depend on the processing

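The 7 shared peaks in each context were also found with centres within 200 bp, with any overlap and with identical intervals. Within 1000 bp all 8 NIH3T3 peaks counted as shared, because the proximal Bhlhe40 peak then reached the distal liver one. Joining peaks closer than 1 kb left 4 shared loci in each context, and left CLOCK at 2 loci in NIH3T3 cells and 1 in liver. Requiring intervals to overlap by at least 1 bp lowered the NIH3T3 peaks with CLOCK from 4 to 2, and a 200 bp limit gave 3. In liver the count was 3 under every distance limit and under overlap. Its CLOCK intervals are 250 bp wide, against 50 bp in NIH3T3 cells. Against the CLOCK list of the other context the count was 3 in NIH3T3 cells and 4 in liver, the added liver peak being the downstream one of Bhlhe41. The 7 liver intervals are also NIH3T3 entries, so these counts repeat the same peaks. With promoters limited to 200 bp, 2 peaks remained in each context, both of Gm129. E-box counts were 3 for Gm129 and 1 for Bhlhe41 with or without E-prime boxes. The lists hold no depth or score, so a stricter threshold could not be applied. No paired analysis was possible because the lists hold no values per library.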

Other observations

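The gene column of the NIH3T3 CLOCK list names Bhlhe41 once, at chromosome 10, 6372765 to 6372814, although Bhlhe41 lies on chromosome 6. The nearest BMAL1 peak to that entry, with its centre 13 bp away in both lists, is annotated to Mthfd1l. The CLOCK peak at the downstream Bhlhe41 site in turn carries the name Mthfd1l, a gene of chromosome 10. They are entries 45 and 43 of the list, so the names of these 2 entries appear exchanged relative to their positions, an observation made after the values were seen. Of 670 entries whose gene name matched RefSeq, 574 (85.7%) named a gene on another chromosome. The Gm129 entry carries its own name. A search of that list by gene name would miss the CLOCK peak at Bhlhe41.

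The NIH3T3 CLOCK list is not in genome order, and no source used here says what orders it. Gm129 is its entry 17 and the downstream Bhlhe41 site its entry 43 of 1016. Of the first 20 entries 17 had an NIH3T3 BMAL1 centre within 500 bp, of the first 100 entries 53 had one, and of all entries 80 (7.87%) had one. All 21 CLOCK entries at BMAL1 peaks of clock list genes stood among the first 50. Entry numbers were not used as a measure of binding.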
